A study of Mus musculus with 12 samples.

Results

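The comparison described here sets 2 RNA libraries labelled STING-KO against 2 labelled WT, both labelled as mouse striatum 7 days after ischemic stroke. They are 4 of the 12 libraries of a study that also covered mice labelled cGAS-KO and a second time, 14 days, with 2 libraries in each of its 6 groups of genotype and time. Per the labels, the WT mice were C57BL/6J, the STING-KO mice were made deficient in Sting with CRISPR-Cas9 and the cGAS-KO mice deficient in Cgas in the same way. All groups had the stroke, there was no uninjured group, and ages were not given. The labels do not say whether the 2 libraries of a group came from separate mice, and the p-values below therefore reflect only how far such libraries differ, which may be technical. All 54532 genes of the count tables belong to the comparison by its rule, and 19822 of them had enough counts to be tested.

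cGAS is an enzyme that binds DNA in the cytosol and makes the cyclic dinucleotide cGAMP, and STING, encoded by Tmem173 in mouse, is the membrane adaptor that cGAMP activates. Active STING recruits the kinase TBK1, which phosphorylates the transcription factor IRF3, and the outcome is type I interferon, NF-kB target genes and, through the interferon receptor, a broad antiviral programme. In the injured brain the pathway is best known in microglia, the resident macrophages, and in macrophages that enter from blood.

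Library totals at 7 days were 17807411 and 19365592 counts for STING-KO and 17619711 and 20128376 counts for WT. Levels are given as CPM, each gene's share of the normalised library total scaled to a common size (counts per 10 to the power of 6), and at this depth a count of 0 in a library allows up to 0.153 to 0.172 CPM (3 counts, counting error only). Changes are log2 differences, STING-KO minus WT, ± SE from edgeR's quasi-likelihood test, n = 2 libraries a group, with Benjamini-Hochberg adjusted p over all genes tested and a threshold of 0.05. "Higher" and "lower" calls below passed that threshold.

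The targeted transcript did not follow its label. Tmem173 (chromosome 18, 35733679 to 35740554, minus strand, mm10) had 20.9 and 23.8 CPM in the libraries labelled STING-KO and 2.80 and 2.71 CPM in those labelled WT. The libraries labelled as knockouts were therefore the higher pair, with no overlap, and the change was 3.02 ± 0.28 (edgeR adjusted p = 4.2e-06). Cgas (chromosome 9, 78430526 to 78443237, minus strand) was higher as well, at 11.2 and 12.6 CPM against 3.25 and 2.97 CPM, a change of 1.94 ± 0.30 (edgeR adjusted p = 0.000249). Counts per gene cannot show a small deletion that leaves the transcript in place. Such a deletion cannot be told apart here from an exchange of labels or files. An exchange of the 7-day STING-KO and WT pairs would turn the sign of every 7-day difference between them given below. It would leave the 14-day differences as they are and change the comparisons between the days and with cGAS-KO. Exchanges with other groups would have other effects. The genotype names are therefore used only as the labels of the libraries. Across all 12 libraries Tmem173 stood lowest in the 7-day WT pair and in the 14-day STING-KO pair, at 2.40 and 5.21 CPM, and between 18.1 and 30.3 CPM in the other 8. The homeostatic microglia genes described below were lowest in the same pairs. They summed to 1336 and 1171 CPM in 7-day WT, 1158 and 1846 CPM in 14-day STING-KO and 3879 to 7152 CPM in the other 8. The part of cell number in the level of Tmem173 was not tested.

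The tissue label was checked with genes of striatal projection neurons. Drd1, the dopamine receptor of the direct pathway, had 1.84 and 12.9 CPM in STING-KO and 4.77 and 4.45 CPM in WT at 7 days, against 376 and 325 CPM in the 14-day STING-KO libraries and 42 and 33.9 CPM in the 14-day WT libraries. Adora2a, the adenosine receptor of the indirect pathway, had 2.64 and 25.8 CPM in STING-KO and 4.21 and 2.15 CPM in WT. These striatal markers were thus low in all 4 libraries compared and did not bear out the tissue label. STING-KO replicate 2 held more of them than replicate 1. The part of tissue sampled in these levels was not tested. Slc17a7, which loads glutamate into vesicles in cortex and hippocampus, had 1272 and 1524 CPM in WT and 213 and 128 CPM in STING-KO. In such bulk RNA, fewer cells of a type and less RNA per cell cannot be told apart.

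**Figure D1:**
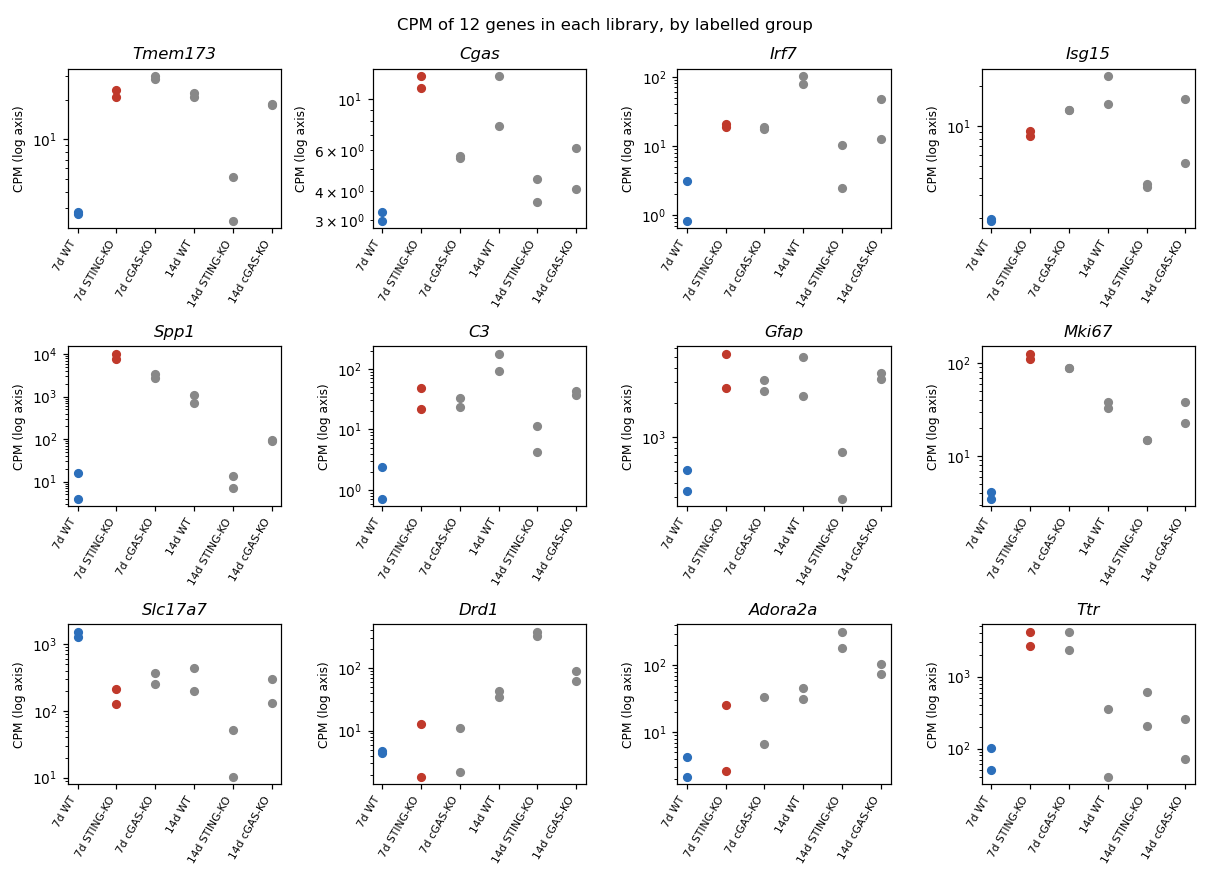
CPM of 12 genes (log axis) in each of the 12 libraries, by labelled group, with red for STING-KO and blue for WT at 7 days and grey for the other groups. Each point is 1 library. Tmem173 sits at 20.9 and 23.8 CPM in 7-day STING-KO and at 2.80 and 2.71 CPM in 7-day WT, and Drd1 is below 13 CPM in all 4.

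The difference between the groups reached about every other tested gene. edgeR called 9694 of 19822 genes (48.9% of those tested), 5218 of them higher (26.3%) and 4476 lower (22.6%) in STING-KO. The rises were the larger changes, since 3838 of the higher genes but 2767 of the lower genes passed 2-fold, and 713 against 68 passed 16-fold. The median change of all tested genes was 0.029, which the normalisation sets near 0, so changes are relative to the typical gene. The 2 groups did not overlap for 80.9% of tested genes. Every count and median of a gene group below should be read against these shares. Some genes belong to several of the lists, so the counts and sums of different lists are not independent.

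**Figure D2:**
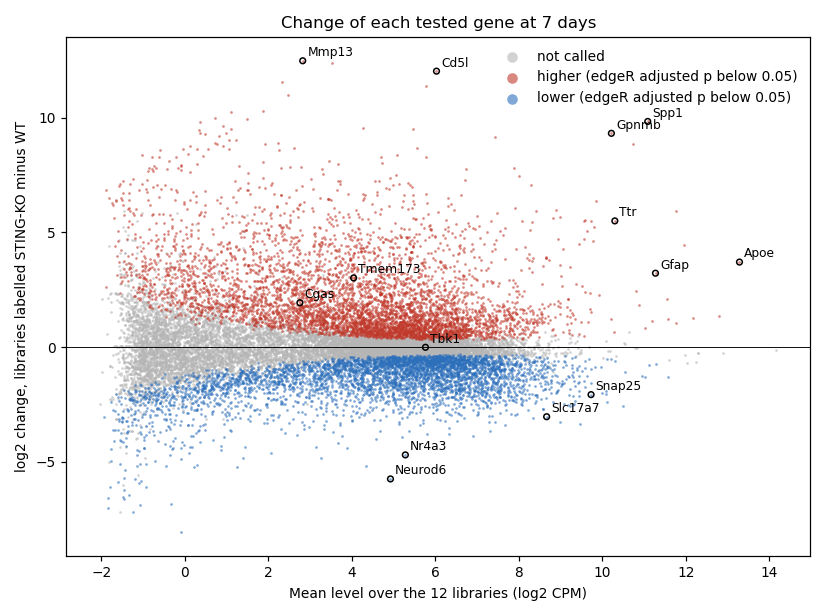
log2 change of each tested gene at 7 days, STING-KO minus WT by label, against its mean log2 CPM over the 12 libraries, with red for higher, blue for lower and grey for genes that were not called. Spp1, at 9.84, combines a high level with a rise that few genes reach, and Tbk1 sits at -0.01.

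Among called genes with a mean log2 CPM of at least 1 and no overlap between the groups, the largest rises included products of activated macrophages and of matrix remodelling. Spp1, the secreted phosphoprotein osteopontin (chromosome 5, 104435118 to 104441050, plus strand), had 10182 and 7730 CPM in STING-KO and 15.7 and 3.94 CPM in WT, a change of 9.84 ± 0.65 (edgeR adjusted p = 7.41e-07). Of its 1648 exon bases, 309 overlap Gm42793 on the same strand. Mmp13, a collagenase, had 54.7 and 23.6 CPM in STING-KO and no count in either WT library, so it was at least 140-fold higher, taking 3 counts per library as the floor. Atp6v0d2, a subunit of the vacuolar proton pump found in osteoclasts and some macrophages, had 33.7 and 38.9 CPM against no count, at least 201-fold.

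By the same floor, Mmp3, the protease stromelysin-1, was at least 89.3-fold higher, Cdca5, a cohesin regulator of dividing cells, at least 51.4-fold, and Sprr1a, a cornified-envelope protein also induced in injured neurons, at least 38.2-fold. Il1rn, the interleukin-1 receptor antagonist, was at least 36.2-fold higher, and Saa3, an acute-phase protein, at least 27.3-fold, with 4.59 and 22.9 CPM in its STING-KO libraries. Cd5l, a secreted macrophage protein, had 135 and 147 CPM in STING-KO and 1 count in the WT pair, a ratio of 5275 with an exact counting interval of 946 to 208405. Col10a1, a collagen of hypertrophic cartilage, had 501 and 101 CPM against 0.168 and 0.0511 CPM, so its STING-KO libraries also differed much from each other.

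The largest falls under the same limits included several neuronal genes. Neurod6, a transcription factor of pyramidal neurons, had 2.12 and 3.02 CPM in STING-KO and 136 and 142 CPM in WT, a change of -5.75 ± 0.50 (edgeR adjusted p = 4.79e-06). Fibcd1, which marks CA1 pyramidal cells of the hippocampus, had 2.87 and 2.22 CPM against 75.2 and 107 CPM, and Spink8, another hippocampal gene, 0.172 and 0.583 CPM against 10 and 12.5 CPM. Nr4a3, an activity-induced nuclear receptor, fell by 4.70 and Npy2r, a neuropeptide Y receptor, fell by 4.41 on the log2 scale. Nkain3, Tnfaip8l3, Cntnap5c, Epha6 and Slc9a4 completed the 10 largest of these falls, with changes from -5.24 for Nkain3 to -4.34 for Slc9a4. In all 10 the WT libraries were the high pair.

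Around the pathway's own genes, 14 of the 19 tested members of the cGAS-STING list were higher, 1 was lower, and the median change was 1.45. Ikbke, the kinase closest to TBK1, had 31.8 and 33.4 CPM in STING-KO and 3.14 and 1.79 CPM in WT, a change of 3.73 ± 0.26 (edgeR adjusted p = 6.11e-07). Tbk1 itself had 59.6 and 56.1 CPM against 58.1 and 58.2 CPM, a difference of -0.01 ± 0.13 (edgeR adjusted p = 0.964). Irf3, the transcription factor the kinases act on, had 55.5 and 58.6 CPM against 29.2 and 24.3 CPM, a change of 1.09 ± 0.15. The 2 kinases thus stood differently, with Ikbke apart between the groups and Tbk1 within the spread of the replicates.

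Enzymes that destroy DNA or cGAMP were among the members that rose. Dnase2a, the lysosomal DNase, had 106 and 111 CPM against 6.11 and 4.55 CPM (4.35 ± 0.18), and Enpp1, which hydrolyses cGAMP outside cells, had 69.7 and 63.8 CPM against 5.55 and 4.19 CPM (3.78 ± 0.28). Samhd1, which breaks down nucleotides, rose by 1.45 ± 0.21, and the RNase H2 subunits Rnaseh2b and Rnaseh2c rose by 1.55 ± 0.24 and 1.05 ± 0.16. Rnaseh2a, the catalytic subunit, differed by 0.35 ± 0.22 (edgeR adjusted p = 0.205). Trex1, the cytosolic DNase, had 0 counts in every library, and all of its exon bases overlap those of Atrip on the same strand, so these counts do not measure it. The exons of Dnase2a overlap those of Mast1 on the other strand, and whether reads were counted by strand is not given.

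Sensors and modifiers of the pathway moved in both directions. Ifi204, a DNA-binding protein of the Ifi200 family, had 18.6 and 20.7 CPM against 0.617 and 0.102 CPM (5.79 ± 0.78). Of 2 ubiquitin ligases that act on STING, Trim56 rose by 1.81 ± 0.18 and Trim32 was the single member called lower, at 68.6 and 58.5 CPM against 189 and 192 CPM (-1.59 ± 0.17, edgeR adjusted p = 1.34e-05). The negative regulators Nlrc3 and Nlrx1 rose by 3.72 ± 0.32 and 1.35 ± 0.29, and the helicase Ddx41 by 0.61 ± 0.15; the Ddx41 call was lost without STING-KO replicate 1 or WT replicate 2 (edgeR adjusted p = 0.0711 and 0.0503). Slc19a1, a cyclic dinucleotide importer, and Stim1, a calcium sensor that binds STING, differed by 0.33 ± 0.28 and -0.08 ± 0.18 and were not called.

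Ifnb1, which encodes interferon-beta, had 0 and 0.053 CPM in STING-KO and 0 counts in both WT libraries, under the 3 counts taken as the floor, so no difference was detectable at this depth. Of the 19 tested genes of interferon receptors and their signalling, 18 were higher and none lower, with a median of 1.45. Ifnar1 and Ifnar2, the chains of the type I receptor, rose by 1.19 ± 0.12 and 2.33 ± 0.16, with Ifnar2 at 62.9 and 77.2 CPM against 14.1 and 13.7 CPM. Ifngr1, of the interferon-gamma receptor, rose by 2.51 ± 0.16. All 3 receptor chains were higher in both STING-KO libraries than in either WT library.

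Downstream, Irf9, a factor of the type I interferon response, had 35.6 and 43.3 CPM against 12.1 and 13.3 CPM (1.64 ± 0.23). Stat3 rose by 1.57 ± 0.17 and Irf1, an interferon-gamma-induced factor, by 1.45 ± 0.28. Irf7, which amplifies type I interferon, had 18.9 and 20.8 CPM against 3.08 and 0.818 CPM (3.37 ± 0.76), and its call was lost with no filter on low counts (edgeR adjusted p = 0.0514). The largest rises of the list were Irf8 (4.89 ± 0.33) and Irf5 (4.33 ± 0.29), factors that macrophages and microglia use for their identity and activation.

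The feedback inhibitors Socs3 and Usp18 rose by 4.18 ± 0.64 and 3.05 ± 0.73. Irf2 rose by 0.83 ± 0.15 and Jak2 by 0.63 ± 0.16. Tyk2, Stat2, Ifngr2 and Socs1 were called at 0.64 ± 0.16, 0.71 ± 0.24, 0.67 ± 0.20 and 1.31 ± 0.38, and each lost its call when at least 1 of the 4 libraries was left out. The highest edgeR adjusted p then were 0.0733 for Tyk2 (without WT replicate 1), 0.165 for Stat2 and 0.105 for Socs1 (both without WT replicate 2), and 0.156 for Ifngr2 (without WT replicate 1). Jak1 alone was not called, at -0.24 ± 0.13, though it was lower by the DESeq2 Wald test (adjusted p = 0.0384) and in a fit of only the 4 libraries (0.0442).

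The effectors that interferon induces moved together, with 49 of 50 members higher, none lower and a median of 2.56. Bst2, the tetherin that holds budding virus, had 105 and 117 CPM against 3.81 and 2.51 CPM (5.14 ± 0.46, edgeR adjusted p = 5.29e-06). Ifi27l2a rose by 5.09 ± 0.47, and Ifitm3, which blocks viral entry, by 3.50 ± 0.48. Isg15, a ubiquitin-like modifier, had 8.37 and 9.16 CPM against 1.91 and 1.99 CPM (2.16 ± 0.50), and Ube2l6, the enzyme that conjugates it, rose by 2.56 ± 0.24. Ifit1, which binds viral RNA, rose by 2.57 ± 0.64; its call was lost without WT replicate 2 (edgeR adjusted p = 0.0637) and with no filter (0.058). Cmpk2, a mitochondrial kinase, was the member not called (-0.48 ± 0.28). Several of these genes have near-identical relatives, such as the Ifit, Gbp and Trim30 families, between which reads may be split.

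The summed level of the effectors was 1107 and 1314 CPM in STING-KO and 212 and 170 CPM in WT at 7 days. The 14-day WT libraries had 3240 and 2466 CPM and the 14-day STING-KO libraries 306 and 562 CPM. The 7-day STING-KO pair therefore lay between the 7-day WT pair and the 14-day WT pair.

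Because the effectors moved together, the promoters of some are shown with the core of the interferon-stimulated response element, GAAANNGAA, searched on both strands in the 250 bases before each RefSeq start. Matches are in capitals, and those that overlap run together. Each line is the 150 bases before the start of a list member that holds a match, 5′ to 3′ on the gene's strand (RefSeq, GRCm38.p6), for Isg15 at chr4:156200819-156200968 (minus strand), Ifit1 at chr19:34640739-34640888 (plus strand) and Bst2 at chr8:71537473-71537622 (minus strand).
Isg15: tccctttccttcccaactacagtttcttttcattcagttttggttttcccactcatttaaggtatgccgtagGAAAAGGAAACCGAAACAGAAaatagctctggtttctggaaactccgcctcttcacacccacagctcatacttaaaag
Ifit1: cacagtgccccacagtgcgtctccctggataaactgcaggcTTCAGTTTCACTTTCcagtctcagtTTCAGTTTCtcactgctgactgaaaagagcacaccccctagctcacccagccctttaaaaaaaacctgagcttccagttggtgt
Bst2: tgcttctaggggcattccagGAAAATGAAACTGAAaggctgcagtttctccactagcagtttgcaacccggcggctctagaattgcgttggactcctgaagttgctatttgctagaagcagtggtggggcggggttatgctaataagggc
In Isg15 the first match begins 78 bases before the start, in Ifit1 109 bases and in Bst2 130 bases. Of the 40 effectors with a promoter in the table, 21 held a match (52.5%), against 8.18% of all 27025 genes with a promoter. A match describes the letters in this window and not a bound site, and it says nothing about why a gene changed.

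NF-kB, the other branch below STING, was read through its subunits, its feedback genes and pattern-recognition receptors, of which 25 of 26 were higher and none lower (median 2.81). Nfkb1 had 76.2 and 83.2 CPM against 25.1 and 28.1 CPM (1.58 ± 0.13), Rela rose by 1.55 ± 0.28 and the inhibitor Nfkbia by 1.11 ± 0.22. Among the receptors, Tlr13, which senses bacterial ribosomal RNA, had 131 and 99.0 CPM against 2.02 and 1.38 CPM (6.08 ± 0.44), and Tlr1 and Tlr6, the partners of TLR2, rose by 4.92 ± 0.36 and 4.23 ± 0.33.

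Of 25 tested cytokines and cytokine receptors, 21 were higher and none lower (median 3.69). Tgfb1 had 187 and 189 CPM against 6.51 and 6.08 CPM (4.90 ± 0.30), and Tnfrsf1b, a TNF receptor of immune cells, rose by 5.13 ± 0.32. Tnf had 8.83 and 7.26 CPM in STING-KO and 1 count in the WT pair, a ratio of 300 with an exact counting interval of 53.4 to 11874. Il1b had 0.516 and 1.17 CPM against 0.337 and 0.153 CPM and was not called (1.79 ± 0.80, edgeR adjusted p = 0.0829). Il6 and Il10 had too few counts to be tested. Tgfb1 and Tnf therefore both stood high in STING-KO, while Il1b stayed near the floor in all 4 libraries.

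Among 24 chemokines and receptors, 17 were higher and 2 lower, with a median of 4.49, or 4.18 with the 2 members that had no WT count set at their lower bound. Ccl3, which draws monocytes, had 57.2 and 63 CPM against 1.35 and 0.256 CPM (6.26 ± 0.72), and Ccl2 had 13 and 14.5 CPM against 0.0561 and 0.307 CPM (6.15 ± 0.57). C5ar1, the receptor of complement fragment C5a, rose by 7.40 ± 0.42. Cx3cl1, the neuronal chemokine read by microglia, was lower, at 133 and 124 CPM against 507 and 541 CPM (-2.03 ± 0.22), whereas its receptor Cx3cr1 rose by 3.76 ± 0.32. The other lower member, Ackr1, a scavenging receptor of venules and red cells (-0.67 ± 0.20), lost its call without STING-KO replicate 2 or WT replicate 2 (edgeR adjusted p = 0.107 and 0.168).

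The inflammasome and cell-death list had 19 of 20 members higher and none lower (median 3.05). Nlrp3, a sensor of the inflammasome, had 19.2 and 18.7 CPM against 0.729 and 1.02 CPM (4.41 ± 0.35), Casp1, its protease, rose by 4.07 ± 0.27 and the pore-former Gsdmd by 3.35 ± 0.24. Casp8 rose by 4.01 ± 0.20 and Ripk1 by 2.75 ± 0.19. The sensor, the protease and the pore-former were each high in both STING-KO libraries.

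Antigen-presentation genes were higher as well, 21 of 22 for class I and the immunoproteasome (median 2.26) and 11 of 12 for class II (median 3.66), with none lower. B2m, the class I light chain, had 696 and 784 CPM against 71.9 and 58.2 CPM (3.51 ± 0.38), and Psmb8, an immunoproteasome subunit, rose by 4.10 ± 0.32. Cd74, the class II chaperone, had 43.6 and 95.8 CPM against 7.46 and 2.15 CPM (3.87 ± 0.70), and H2-Ab1 rose by 4.59 ± 0.60. Within STING-KO, replicate 2 had about the double of replicate 1 for Cd74, H2-Aa and H2-Eb1. H2-K1 and H2-D1 (3.37 ± 0.43 and 3.54 ± 0.50) share sequence with other class I genes, so reads may be split between them. Ciita, the master activator of class II genes, was not called (-0.04 ± 0.39).

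Complement had 16 of 18 members higher and none lower (median 3.55). C1qa, C1qb and C1qc, the subunits of the initiator C1q, rose by 5.50 ± 0.51, 5.49 ± 0.52 and 5.55 ± 0.62, with C1qa at 1930 and 2254 CPM against 53.3 and 39.5 CPM. C3, the central component, had 22 and 47.6 CPM against 2.36 and 0.716 CPM (4.52 ± 0.63), and its receptor C3ar1 rose by 7.31 ± 0.59. The 3 C1q chains moved by nearly the same amount.

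Markers of myeloid cells moved with the innate genes above. Of 18 tested genes of homeostatic microglia, 17 were higher and none lower (median 3.06), and their summed level was 6775 and 7152 CPM in STING-KO and 1336 and 1171 CPM in WT. Cx3cr1 had 537 and 613 CPM against 43.1 and 41.9 CPM and Tmem119 rose by 3.31 ± 0.31. P2ry12, the ADP receptor that falls when microglia activate, rose least of the leading markers, at 65.5 and 86.9 CPM against 24.1 and 29 CPM (1.52 ± 0.17). The part of cell number in the innate changes above was not tested.

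Genes of disease-associated microglia rose more: 24 of 26 were higher, none lower, and the median was 4.61. Besides Spp1, Gpnmb, a lysosomal glycoprotein of lipid-laden macrophages, had 4557 and 4521 CPM against 10.1 and 4.14 CPM (9.32 ± 0.69), and Lgals3, galectin-3, 644 and 569 CPM against 1.91 and 0.256 CPM (9.16 ± 0.48). Trem2, the lipid-sensing receptor, rose by 5.47 ± 0.70 and Igf1 by 4.77 ± 0.46. Summed over the list, 66444 and 69492 CPM fell to it in STING-KO and 5404 and 4917 CPM in WT, with 46091 and 51713 CPM in 7-day cGAS-KO. In STING-KO these 26 genes thus took over 6% of all counts.

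Monocyte and macrophage genes had 22 of 27 members higher and none lower. The median was 5.10, or 4.61 with the 2 members that had no WT count at their bound. The summed level of the list was 5304 and 6018 CPM in STING-KO and 92.9 and 77.7 CPM in WT. Lyz2, lysozyme, made up most of it, at 4429 and 5181 CPM against 16.2 and 4.55 CPM (8.87 ± 0.78). Adgre1, a surface antigen of mature mouse macrophages, rose by 5.37 ± 0.34, Ms4a6d by 7.05 ± 0.35 and Ccr2, the receptor of inflammatory monocytes, by 4.61 ± 0.65. Ly6c2, the defining marker of fresh monocytes, had 0.860 and 1.59 CPM against 0.280 and 0.102 CPM and was not called (2.68 ± 1.13, edgeR adjusted p = 0.069). The DESeq2 Wald test (adjusted p = 0.0117) and the legacy test (edgeR adjusted p = 0.0478) did call Ly6c2. So did fits of only the libraries compared and only the 7-day libraries (edgeR adjusted p = 0.0137 and 0.0174).

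Neutrophil and lymphocyte genes were few in reads. Ly6g, which defines mouse neutrophils, had 0 and 0.053 CPM in STING-KO and no count in WT, while the list had 6 of 8 tested members higher and a summed level of 124 and 169 CPM against 14.5 and 11.7 CPM. Csf3r, the G-CSF receptor, which myeloid cells beyond neutrophils also express, gave most of that sum, at 92.3 and 126 CPM against 8.75 and 7.16 CPM (3.78 ± 0.48). Mmp8 had 473 counts in the STING-KO pair and 1 in the WT pair, a ratio of 487 with an exact counting interval of 87 to 19274. S100a9 was not called in the main fit. The DESeq2 Wald test called it higher (3.27, adjusted p = 0.00402), as did the fit of only the libraries compared (edgeR adjusted p = 0.00933). Of 22 tested genes of T, NK and B cells, 6 were higher and 1 lower. Cd3e, of the T-cell receptor complex, had 0.172 and 0.318 CPM against 0.224 and 0.102 CPM (0.60 ± 1.20, edgeR adjusted p = 0.702), and Cd4, also expressed by mouse macrophages, rose by 3.67 ± 0.55. Also called higher were Cd3g, with 18 counts in STING-KO against 2 in WT, and Gzma, with 19 against 1. So were Cd3d, with no count in WT, and Cd79b. Cd3g, Gzma, Cd3d and Cd79b each lost the call when at least 1 of the libraries compared was left out. Zap70, a T-cell kinase, was lower, at 2.7 and 2.91 CPM against 8.47 and 10.2 CPM (-1.73 ± 0.28). The lymphocyte count fell from 7 calls to 2 without WT replicate 2, and to 3 without STING-KO replicate 2 or WT replicate 1.

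Phagocyte machinery rose throughout: all 20 tested genes of the NADPH oxidase and Fc receptors were higher, with a median of 4.88. Cybb, the catalytic subunit of the oxidase, had 98 and 114 CPM against 1.23 and 0.460 CPM (6.98 ± 0.62), and its partner Cyba rose by 5.71 ± 0.45. Fcer1g, the signalling chain of Fc receptors, had 438 and 445 CPM against 8.86 and 6.70 CPM (5.83 ± 0.27), and the kinase Lyn rose by 4.33 ± 0.19. The exons of Itgam, the integrin CD11b (4.19 ± 0.29), largely overlap those of Gm49368 on the same strand.

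Lipid handling split by direction. Of 25 genes of lipid uptake, droplets and efflux, 22 were higher and 1 lower (median 2.32). Msr1, a scavenger receptor, had 186 and 149 CPM against 0.617 and 0.205 CPM (8.68 ± 0.33), Cd36, another, rose by 8.31 ± 0.42, and Plin2, the coat of lipid droplets, had 995 and 730 CPM against 5.83 and 4.09 CPM (7.44 ± 0.34). Abca1, which exports cholesterol, rose by 3.87 ± 0.22 and Npc2, which moves it out of lysosomes, by 3.44 ± 0.19. The member called lower was Vldlr (-0.66 ± 0.17), whose call was lost without STING-KO replicate 1 or WT replicate 2 (edgeR adjusted p = 0.0605 and 0.0641).

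Cholesterol synthesis went the other way, with 14 of 25 members lower, 1 higher and a median of -0.83. Fdft1, squalene synthase, whose 4227 exon bases share 774 with Ctsb on the other strand, had 28.6 and 31.8 CPM against 59.6 and 71.6 CPM (-1.12 ± 0.20), and Sqle, the next enzyme, fell by 0.88 (SE 0.19) on the log2 scale. Cyp46a1, the neuronal enzyme that turns cholesterol over, fell by 1.17, and Ebp, a sterol isomerase, was the member that rose (1.09 ± 0.20). Without WT replicate 2, 9 members of the list were called in place of 15.

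The lysosome list had 38 of 46 members higher and 3 lower (median 2.92), and its summed level was 47366 and 48829 CPM in STING-KO and 6225 and 6118 CPM in WT. The proteases Ctsb and Ctsd had 9917 and 10533 CPM and 9360 and 9431 CPM in STING-KO, compared with 477 and 454 CPM and 177 and 131 CPM in WT. Their changes were 4.46 ± 0.27 and 5.93 ± 0.71. Lgmn, legumain, rose by 4.49 ± 0.23, Hexa, of beta-hexosaminidase, by 3.82 ± 0.20 and the membrane protein Lamp1 by 2.41 ± 0.17.

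The 3 lower members were all subunits of the vacuolar proton pump that every cell uses, Atp6v1a at 338 and 293 CPM against 597 and 642 CPM (-0.97 ± 0.19), Atp6v1h (-0.64 ± 0.12) and Atp6v1b2 (-0.66 ± 0.17). The Atp6v1b2 call was lost without STING-KO replicate 2 or WT replicate 2 (edgeR adjusted p = 0.0572 and 0.0513). The subunit Atp6v0d2 was among the largest rises, so subunits of the same pump stood on both sides. The promoter of Ctsd is shown with the core of the lysosomal CLEAR element, TCACGTGA, which reads the same on both strands, as the 150 bases before the RefSeq start at chr7:142387828-142387977 (minus strand, GRCm38.p6), with the match, 99 bases before the start, in capitals.
Ctsd: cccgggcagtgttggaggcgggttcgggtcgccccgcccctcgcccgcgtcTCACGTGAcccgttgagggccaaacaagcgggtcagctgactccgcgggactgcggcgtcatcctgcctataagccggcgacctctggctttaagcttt
Of 34 lysosome genes with a promoter in the table, 5 held this motif (14.7%), against 0.907% of all 27025 genes; Atp6v1a, called lower, was among the 5. Part of the exons of Ctsd overlap Gm49369.

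Iron and haem genes had 12 of 19 members higher and 1 lower (median 1.64). Hmox1, which breaks down haem, had 199 and 146 CPM against 6.73 and 4.91 CPM (4.89 ± 0.28), and Slc11a1, the metal transporter of phagosomes, rose by 4.65 ± 0.33. Ftl1 and Fth1, the ferritin chains, rose by 4.63 ± 0.37 and 1.06 ± 0.24, with reads that may be shared with their many pseudogenes. Tfrc, the transferrin receptor, was lower (-0.68 ± 0.14). Red-cell transcripts did not move with them, since none of 5 was called and Hbb-bs had 22 and 38.6 CPM in STING-KO and 18.7 and 38.3 CPM in WT.

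**Figure D3:**
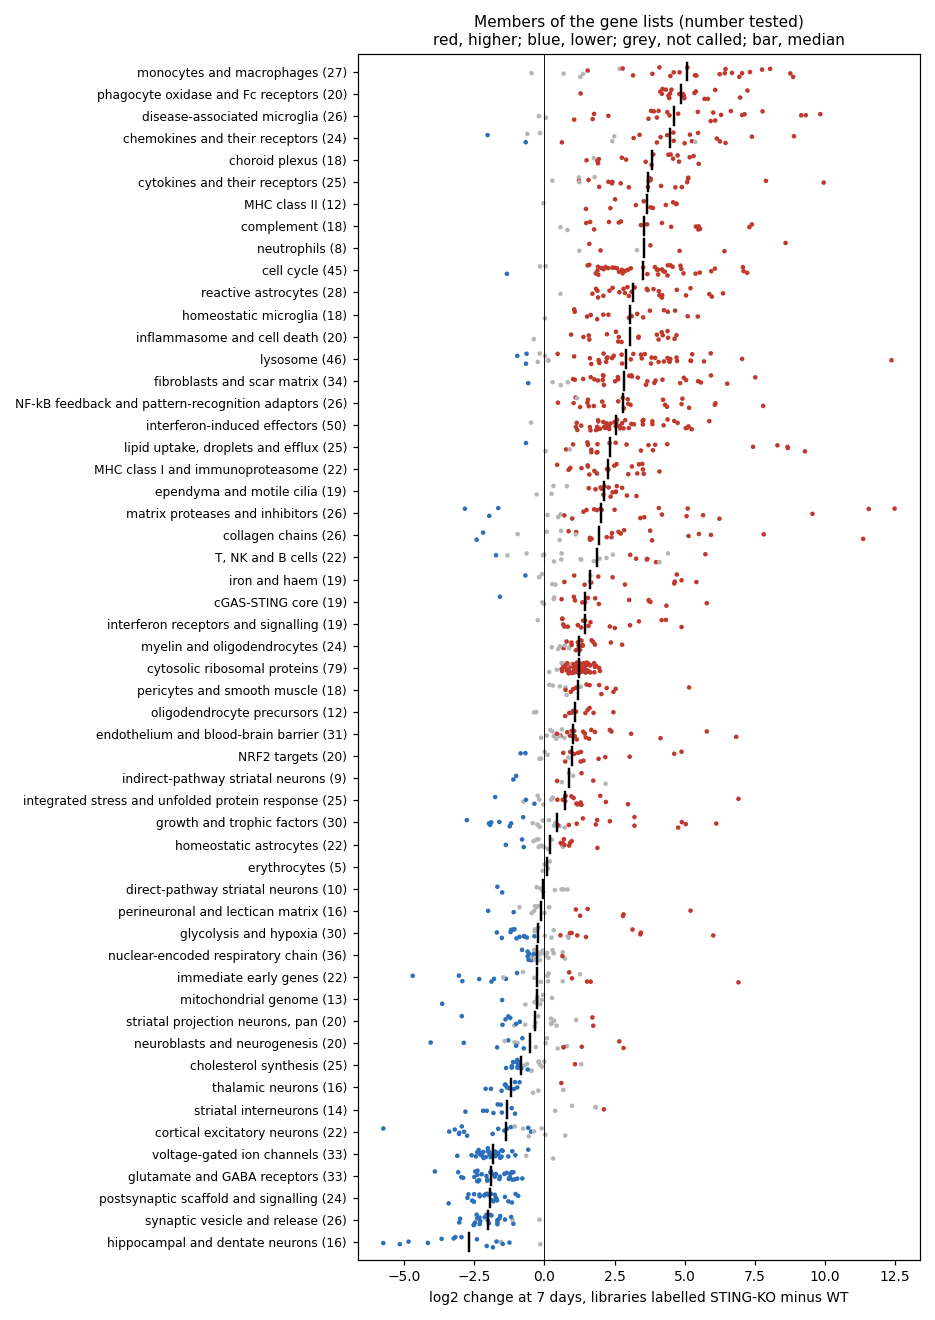
log2 change at 7 days, STING-KO minus WT by label, of each tested member of 54 gene lists, ordered by their medians, with red for higher, blue for lower, grey for not called and a bar at the median. The medians run from -2.68 for hippocampal and dentate neurons to 5.10 for monocytes and macrophages.

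Reactive and homeostatic astrocyte genes stood apart. Of 28 tested reactive astrocyte genes, 27 were higher and none lower (median 3.17), whereas of 22 homeostatic astrocyte genes 9 were higher, 3 lower and 10 not called (median 0.19). Gfap, the astrocyte intermediate filament, had 2671 and 5340 CPM against 519 and 339 CPM (3.22 ± 0.52), with replicate 2 of STING-KO again the higher. Vim rose by 5.05 ± 0.44, Serpina3n by 3.89 ± 0.64 and Emp1 by 6.37 ± 0.23. Vim, Cd44 and Emp1 are also made by macrophages and fibroblasts. Vim and Tnc also stand in the fibroblast list, Cxcl10 and Gbp2 in the interferon-induced list and Psmb8 in the class I list.

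Of the homeostatic genes, Aqp4, the water channel of astrocyte endfeet, rose by 1.89 ± 0.23, and Gpc5 and the GABA transporter Slc6a11 were lower (-1.38 ± 0.16 and -0.80 ± 0.17). Slc1a2, the main glutamate transporter, had 1034 and 1479 CPM against 1900 and 2290 CPM (-0.74 ± 0.25), a call that was lost without STING-KO replicate 1 or WT replicate 2 (edgeR adjusted p = 0.166 and 0.167). The direction of this list rests on 1 library, since without STING-KO replicate 2 it had 6 calls, more of them lower than higher, and without WT replicate 2 it had 5.

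Oligodendrocyte genes were moderately higher, 19 of 24 for myelin (median 1.22) and 10 of 12 for precursors (median 1.08), with none lower. Mbp, myelin basic protein, had 6659 and 8788 CPM against 3558 and 2464 CPM (1.36 ± 0.28). Enpp6, which marks newly forming oligodendrocytes, rose more, at 35.7 and 73.8 CPM against 9.03 and 7.06 CPM (2.77 ± 0.34), and the precursor proteoglycan Cspg4 rose by 2.46 ± 0.30. Without STING-KO replicate 2 the myelin list had 10 calls and without WT replicate 2 it had 11, and the precursor list had 6 calls without WT replicate 1.

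Vascular lists had smaller medians than the immune lists. Of 31 endothelial genes 21 were higher and none lower (median 1.01), and of 18 genes of pericytes and smooth muscle 12 were higher and none lower (median 1.21). Cdh5, the adhesion protein of endothelial junctions, had 70 and 47.2 CPM against 12.5 and 10.9 CPM (2.33 ± 0.38), and the leukocyte adhesion receptor Icam1 had 38.3 and 47.5 CPM against 2.30 and 2.56 CPM (4.14 ± 0.45). Pdgfrb, of pericytes, rose by 2.22 ± 0.28 and Anpep by 5.16 ± 0.24. The endothelial count was 10 without WT replicate 1 and 13 without WT replicate 2, and the pericyte count 6 without STING-KO replicate 1 and 7 without WT replicate 2.

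Scar-forming genes rose strongly, with 30 of 34 fibroblast and scar-matrix genes higher and 1 lower (median 2.82). Col1a1 had 694 and 590 CPM against 10.5 and 10.5 CPM (5.94 ± 0.76), Col3a1 had 472 and 425 CPM against 2.19 and 1.79 CPM (7.82 ± 0.93), and Fn1, fibronectin, rose by 3.92 ± 0.38. Lox, which crosslinks collagen, had 78.1 and 32 CPM against 0.168 and 0.409 CPM (7.52 ± 0.86), and Thbs1 rose by 6.52 ± 0.35. P4ha2, a collagen prolyl hydroxylase, was the member called lower (-0.58 ± 0.22, edgeR adjusted p = 0.0473), and it lost that call without STING-KO replicate 2 or either WT library (0.216, 0.0511 and 0.283) and in the legacy test (0.0505).

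Of 26 collagen chains 19 were higher and 2 lower (median 1.95). The lower ones were chains made by neurons, Col25a1, at 22 and 24.3 CPM against 97.4 and 113 CPM (-2.19 ± 0.20), and Col19a1 (-2.42 ± 0.44). Of 26 matrix proteases and inhibitors, 20 were higher and 3 lower (median 2.02). Mmp12, the macrophage elastase, had 69 and 103 CPM in STING-KO and 0.224 and 0 CPM in WT, and Plau, urokinase, rose by 6.24 ± 0.43. The membrane-bound Mmp17, Mmp24 and Mmp16 were lower by 2.84, 1.97 and 1.65 (log2 changes -2.84 ± 0.35, -1.97 ± 0.26 and -1.65 ± 0.30), with Mmp17 at 28.5 and 32.8 CPM against 214 and 225 CPM. In the perineuronal matrix, 6 of 16 genes were higher and 2 lower. Hapln4, a link protein of perineuronal nets, fell by 2.01 on the log2 scale and Chst3, a chondroitin sulfotransferase, rose by 2.82 ± 0.37.

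Of the proliferation genes, 42 of 45 were higher and 1 lower, with a median of 3.52. Mki67 had 126 and 110 CPM against 3.48 and 4.09 CPM (4.96 ± 0.25), Top2a 78.9 and 74.4 CPM against 0.505 and 0.614 CPM (7.08 ± 0.44), and Cdk1, the mitotic kinase, rose by 7.23 ± 0.40. Ccnd2, a cyclin that neurons and their progenitors express, was lower, at 25 and 34.5 CPM against 66.4 and 83.8 CPM (-1.34 ± 0.20). Neuroblast genes were mixed, 5 higher and 7 lower of 20. Dlx1, of interneuron precursors, had 3.44 and 4.45 CPM against 23.3 and 35 CPM (-2.88 ± 0.24), Nes rose by 2.67 ± 0.30, and Sox11 did not differ beyond the spread (0.04 ± 0.33). Without WT replicate 2 the neuroblast list had 6 calls in place of 12.

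Growth factors were split, with 13 of 30 higher and 8 lower. Bdnf, the activity-dependent neurotrophin, had 10.1 and 9.22 CPM against 40.9 and 33.3 CPM (-1.94 ± 0.26), Ntf3 fell by 2.77 and its receptor Ntrk3 fell by 1.90 on the log2 scale. Gdf15, a stress-induced factor, had 15.5 and 15.4 CPM against 0.337 and 0.102 CPM (6.13 ± 0.54). Vegfa was lower, at 41.3 and 47.5 CPM against 91.6 and 110 CPM (-1.19 ± 0.15). Bdnf, Ntf3, Ntrk3 and Vegfa thus lay higher in WT, and Gdf15 higher in STING-KO.

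Synaptic genes made up the other pole of the comparison. Of 26 genes of synaptic vesicles and release, 24 were lower and none higher (median -2.0), and the same held for all 33 glutamate and GABA receptors (median -1.91), 31 of 33 voltage-gated channels (median -1.82) and all 24 postsynaptic genes (median -1.95). Syt1, the calcium sensor of release, had 265 and 206 CPM against 1276 and 1416 CPM (-2.51 ± 0.22), and Snap25 had 571 and 352 CPM against 1922 and 1959 CPM (-2.07 ± 0.25). Gria1, an AMPA receptor subunit, had 85.8 and 125 CPM against 857 and 926 CPM (-3.08 ± 0.22), and the NMDA receptor subunit Grin2a fell by 2.97. Of the channels, Scn3b had 29.4 and 29.2 CPM against 244 and 260 CPM (-3.11 ± 0.25) and Kcnd2 fell by 2.18. The kinase scaffold Cnksr2 fell by 2.75 and Dlg4, PSD-95, by 1.99 on the log2 scale. Hcn2 and Scn4b were the channels not called (0.31 ± 0.20 and -0.65 ± 0.39).

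Genes of striatal neurons were lower in sum for 2 of 3 projection neuron lists. Of 20 genes of striatal projection neurons, 7 were lower and 2 higher (median -0.34), and of 10 direct-pathway genes 2 were lower (median -0.06). The projection neuron genes summed to 984 and 1360 CPM in STING-KO and 1760 and 1896 CPM in WT, and the direct-pathway genes to 216 and 250 CPM and 472 and 533 CPM, with no overlap in either. Whether these lists differ from the synaptic lists was not tested. Ppp1r1b, DARPP-32, had 74.5 and 120 CPM in STING-KO and 50 and 39 CPM in WT (1.13 ± 0.44, edgeR adjusted p = 0.0546), and it was called by the DESeq2 Wald test (adjusted p = 0.0251) and in a fit of only the 4 libraries (0.0141). Rgs9, a striatal regulator of G proteins, had 10.3 and 35.4 CPM against 15.6 and 18.4 CPM, so the STING-KO libraries lay on either side of the WT pair. Bcl11b, a factor of striatal and deep cortical neurons, was lower, at 9.18 and 29 CPM against 139 and 157 CPM (-2.95 ± 0.43). Penk, enkephalin, had 35.4 and 119 CPM against 24.1 and 21.9 CPM (1.74 ± 0.58), and its call was lost without STING-KO replicate 2 (edgeR adjusted p = 0.469), WT replicate 1 (0.108) or WT replicate 2 (0.137), with no filter on low counts (0.181) and in a fit of only the 7-day libraries (0.075).

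These region counts depended on single libraries. The projection neuron list had 5 calls in place of 9 without STING-KO replicate 1 and 3 without WT replicate 2, and the direct-pathway list had 1 in place of 2 without WT replicate 2. The indirect-pathway list, with 3 higher and 2 lower of 9, had 2 calls without STING-KO replicate 2, 1 without WT replicate 2 and 3 without STING-KO replicate 1. Without WT replicate 1 it also had 3 calls, more of them lower than higher. Its 9 tested genes gave 190 and 303 CPM in STING-KO and 161 and 164 CPM in WT.

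Of 14 interneuron genes 9 were lower and 1 higher (median -1.34), with Sst, somatostatin, at 21.7 and 15.8 CPM against 108 and 156 CPM (-2.82 ± 0.40) and Npy lower by 1.67 (log2 change -1.67 ± 0.31). The count was 5 without STING-KO replicate 2 and 6 without WT replicate 2. The cholinergic genes Chat and Slc18a3 were near the floor, with Chat at 0.402 and 1.85 CPM against 0.280 and 0.358 CPM. Slc5a7, also cholinergic, was the member called higher. Its log2 change was 0.99 without STING-KO replicate 2 and 2.05 without WT replicate 2, and the call was lost in both fits.

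Markers of regions outside the striatum moved with the synaptic genes. Of 16 hippocampal and dentate genes 14 were lower (median -2.68), and their summed level was 348 and 496 CPM in STING-KO and 1618 and 1647 CPM in WT. Prox1, of dentate granule cells, had 23.5 and 46.8 CPM against 121 and 131 CPM (-1.84 ± 0.27). Of 22 cortical genes 15 were lower, with a summed level of 814 and 538 CPM against 2545 and 2980 CPM, and Neurod2 fell by 3.40 on the log2 scale. Of 16 thalamic genes 12 were lower and 1 higher, at 570 and 563 CPM against 1184 and 1009 CPM in sum, with Ntng1 lower by 1.91 (log2 change -1.91 ± 0.26); without STING-KO replicate 2 this list had 7 calls. The WT libraries thus held more RNA of non-striatal neurons than the STING-KO libraries, and the part of tissue sampled in the synaptic changes was not tested.

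Choroid plexus and ependyma, which line the ventricle beside the striatum, moved the other way. Of 18 choroid plexus genes 17 were higher and none lower (median 3.85), with a summed level of 6156 and 3955 CPM in STING-KO and 369 and 234 CPM in WT. Ttr, transthyretin, which the plexus secretes, had 4226 and 2636 CPM against 102 and 49.5 CPM (5.50 ± 1.04), Folr1 rose by 4.75 ± 0.46 and Tmem72 by 5.32 ± 0.54. Of 19 genes of ependyma and motile cilia 15 were higher and none lower (median 2.14). Foxj1, the factor that drives motile cilia, had 45.2 and 55.3 CPM against 12.3 and 5.22 CPM (2.53 ± 0.37). Both STING-KO libraries held more of these genes, and how the tissue was dissected cannot be told apart from the label.

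**Figure D4:**
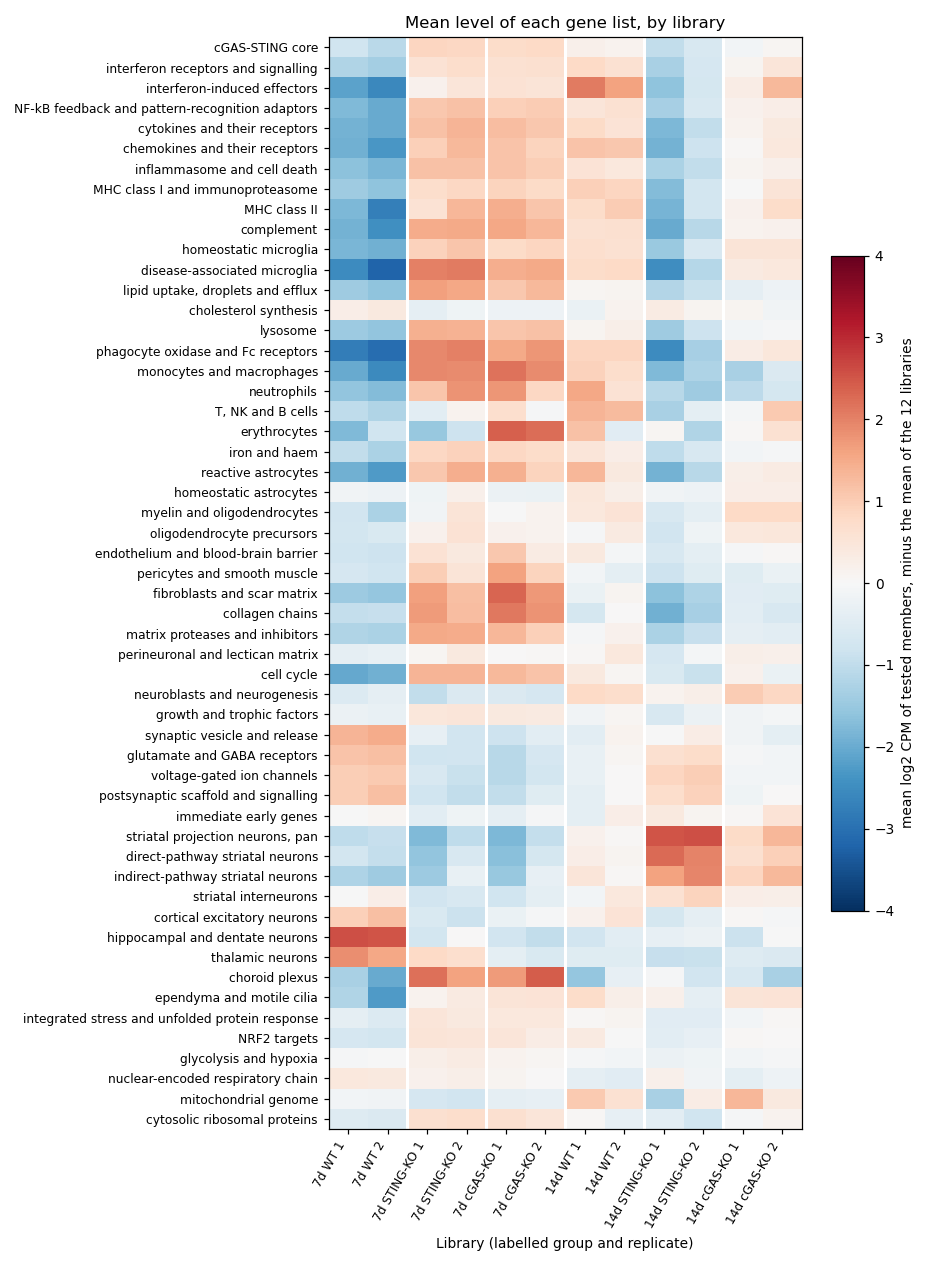
Mean log2 CPM of the tested members of each gene list in each library, minus the mean of the 12 libraries, with red for above and blue for below that mean. The 7-day WT and the 14-day STING-KO libraries are low for the immune lists, hippocampal genes are highest in 7-day WT, and striatal projection neuron genes are highest in 14-day STING-KO.

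Activity-induced genes did not move as 1 group. Of 22 immediate early genes 5 were higher and 8 lower. Arc, which neurons induce on firing, had 17.8 and 22.3 CPM against 99.7 and 102 CPM (-2.33 ± 0.54), a call lost with no filter on low counts (edgeR adjusted p = 0.0521). Atf3, a stress-induced factor, had 90.3 and 80.6 CPM against 1.35 and 0.102 CPM (6.92 ± 0.51), and Dusp6 rose by 1.52 ± 0.25. Egr1 was not called (-0.77 ± 0.38), except in the fits of only the 7-day libraries (edgeR adjusted p = 0.0125) and only the 4 libraries (0.00761). Arc and Atf3, both induced within hours of a stimulus, thus stood on opposite sides.

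In the integrated stress and unfolded protein response, 16 of 25 genes were higher and 3 lower (median 0.74). The chaperone genes Sdf2l1 and Pdia4 rose by 2.98 ± 0.20 and 1.99 ± 0.21. Asns, asparagine synthetase, which ATF4 induces, was lower, at 27.9 and 21.8 CPM against 84.3 and 83.9 CPM (-1.76 ± 0.16), and Atf4 itself was not called (0.24 ± 0.17). Without WT replicate 2 the list had 12 calls in place of 19. NRF2 targets had 13 of 20 members higher and 2 lower, with Nfe2l2, the gene of NRF2, at 103 and 117 CPM against 16.2 and 10.6 CPM (3.04 ± 0.20), Pgd up by 2.17 ± 0.14 and Acsl4, which favours ferroptosis, lower (-0.85 ± 0.19). Gclm, of glutathione synthesis, differed by 0.11 ± 0.14 and was not called.

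Of 30 glycolysis and hypoxia genes, 9 were higher and 12 lower (median -0.25). Hk1, the main hexokinase of brain, had 169 and 157 CPM against 351 and 402 CPM (-1.21 ± 0.16). Hk2, which glia and activated macrophages induce, had 48.5 and 62.1 CPM against 7.01 and 5.52 CPM (3.14 ± 0.28), and Hk3, of myeloid cells, 130 and 113 CPM against 1.96 and 1.79 CPM (6.02 ± 0.26). The lactate exporter Slc16a3 rose by 3.44 ± 0.36, Pfkfb3 by 1.48 ± 0.14 and Hif1a by 1.17 ± 0.15. The 3 hexokinases therefore moved in both directions by amounts well outside their errors.

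Nuclear genes of the respiratory chain changed little, with 9 of 36 lower and 1 higher (median -0.25). Ndufs1, of complex I, had 74.7 and 75.6 CPM against 134 and 127 CPM (-0.80 ± 0.13), and Sdhc rose by 0.64 ± 0.15. The count was 23 in a fit of only the 4 libraries and 5 without WT replicate 2 (6 without WT replicate 1). Of 13 mitochondrial transcripts 2 were lower, and mitochondrial counts made up 3.40% and 3.13% of the STING-KO libraries and 4.02% and 4.14% of the WT libraries. mt-Nd3 had 2.47 and 2.44 CPM against 31.6 and 29.9 CPM (-3.65 ± 0.51), while mt-Nd1 had 4148 and 3655 CPM against 4506 and 4849 CPM (-0.26 ± 0.31). The list had 1 call without any 1 of the 4 libraries, and mt-Nd4l, the other member called, lost its call in each of those fits (edgeR adjusted p from 0.107 to 0.151).

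Of 79 cytosolic ribosomal protein genes 75 were higher and none lower (median 1.22). Their summed level was 28412 and 29290 CPM in STING-KO and 12365 and 12039 CPM in WT. Rplp0, of the ribosomal stalk, had 746 and 774 CPM against 203 and 192 CPM (1.95 ± 0.17), and Rpl10 rose by 1.78 ± 0.17. These genes have many processed pseudogenes, between which reads may be split.

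The labelled STING-KO effect was set against the same contrast at 14 days, which uses 4 other libraries. At 14 days 6717 genes were called (33.9% of those tested). Of the genes called at both days, 4371 changed in opposite directions, 2475 of them higher at 7 and lower at 14 days and 1896 the reverse, and 375 changed in the same direction. An exchange of the STING-KO and WT labels at 7 days alone would turn the opposite changes into changes in the same direction. The difference of the effects, tested as an interaction, was called for 10292 genes (51.9%), 5475 with the higher change at 7 days and 4817 with the lower. Tmem173 was among them, with -2.51 ± 0.27 at 14 days and a difference of 5.53 ± 0.39 (edgeR adjusted p = 4.56e-07), and so was Cgas, with -1.32 ± 0.30 at 14 days and a difference of 3.25 ± 0.43.

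By gene list, the interferon-induced effectors had a median of 2.56 at 7 and -2.89 at 14 days, and the difference was called for 49 of 50. Disease-associated microglia genes had 4.61 and -2.53, with the difference called for 24 of 26, and postsynaptic genes -1.95 and 1.11, with 23 of 24. Not all lists turned. Neuroblast genes had -0.52 and -0.72, mitochondrial transcripts -0.26 and -0.78, and perineuronal matrix genes -0.12 and -0.42. Choroid plexus genes had 3.85 and 0.43. Cortical genes at 14 days summed to 1564 and 1483 CPM in STING-KO and 1043 and 1407 CPM in WT, the reverse of 7 days. Of these genes, 11 were lower and 6 higher at 14 days. Their medians were negative at both days, at -1.38 and -0.97. Slc17a7 was lower at both, at 10.3 and 51.1 CPM against 199 and 439 CPM at 14 days (-3.38 ± 0.67), and its effects did not differ between the days beyond their error (0.34 ± 0.86, edgeR adjusted p = 0.761). Drd1, which was not called at 7 days, was higher at 14 days by 3.21 ± 0.64.

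**Figure D5:**
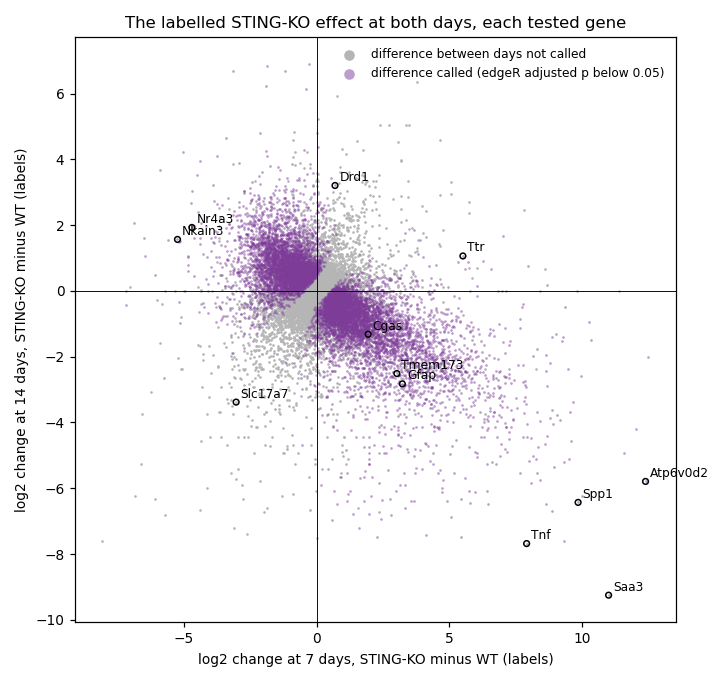
log2 change at 14 days against that at 7 days, STING-KO minus WT by label, for each tested gene, with purple where the difference between the days was called. Most purple points lie in the upper left and lower right, with Tmem173 at 3.02 and -2.51, while Slc17a7 lies at -3.04 and -3.38.

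Set beside the cGAS-KO libraries of the same time, the STING-KO libraries differed in 32 of the 19822 genes tested (0.161%), 15 higher and 17 lower. Both labelled knockouts share the WT libraries as controls, so their changes against WT are given side by side only: the effectors had a median of 2.56 in STING-KO and 2.89 in cGAS-KO, disease-associated microglia genes 4.61 and 4.09, and postsynaptic genes -1.95 and -1.74. Shox2, a transcription factor of thalamic and other neurons, had 19.5 and 9.75 CPM in STING-KO and 0.362 and 0.309 CPM in cGAS-KO (5.42 ± 0.48, edgeR adjusted p = 0.00242). Mmp13 had 2.47 and 1.49 CPM in cGAS-KO and was higher in STING-KO by 4.31 ± 0.47, and Rgs1, which damps G-protein signals in leukocytes, had 25.2 and 28.3 CPM against 6.46 and 6.48 CPM (2.05 ± 0.21). Irx2, Agt and Gm28438 completed the 6 largest rises, at 4.02 ± 0.72, 2.70 ± 0.36 and 2.17 ± 0.33.

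On the other side, the red-cell genes Hbb-bt and Alas2 were lower in STING-KO than in cGAS-KO. Alas2 had 1.15 and 1.11 CPM against 10.3 and 11 CPM (-3.22 ± 0.46), and Hbb-bt stood at -3.63 ± 0.56. The red-cell list summed to 867 and 708 CPM in cGAS-KO, 49.8 and 88.8 CPM in STING-KO and 42.3 and 85.3 CPM in WT at 7 days. Gjb2, a connexin of the meninges, had 23.7 and 23.4 CPM against 120 and 78.1 CPM (-2.07 ± 0.23, edgeR adjusted p = 0.00645). mt-Nd3, Ptgdr and Lrmda completed the 6 largest falls, at -3.22 ± 0.52, -2.86 ± 0.49 and -2.30 ± 0.39. The number of calls in this comparison was unstable. Without cGAS-KO replicate 1 edgeR called 0 genes, and without cGAS-KO replicate 2 it called 202. Without STING-KO replicate 1 the count was 8, and the DESeq2 Wald test called 263.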

How the data were processed

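RNA was sequenced from 12 libraries labelled as striatum, as paired reads of polyA-selected RNA per the labels' protocols. The authors deposited raw counts per Ensembl gene ID, 1 file a library; HISAT2, featureCounts and the mm10 build are named in the submitters' processing notes, while versions, annotation release and strand setting are not given in the sources used here. Of 54532 IDs, 54495 had a symbol in the reference table. Library totals ran from 15956242 to 22126213 counts, and intervals and floors (3 counts a library) cover counting error only.

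All 12 libraries entered 1 edgeR (4.0.16) fit with 6 groups, TMM normalisation, filterByExpr (minimum count 10, total 15), robust quasi-likelihood and Benjamini-Hochberg adjustment at 0.05 (6 residual degrees of freedom). The SE is the log2 change divided by the square root of F. Alternatives were other scalings and filters, DESeq2 (1.42.0), the legacy edgeR test, fewer libraries in the fit, a replicate block and leaving out each library. Counts were simulated for the 7-day comparison (19225 genes), with 100 genes changed 2-fold, 100 changed 4-fold and all others flat. There, 41% of 2-fold and 81% of 4-fold changes were called, with 7 false among 129 calls. In the data 48.9% of tested genes were called, so these rates need not hold for them.

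Members and gene lists were chosen with earlier results of these data known. Genes were named by rule: Tmem173 and Cgas; the 10 largest rises and falls among called, separated genes with a symbol and log2 CPM of at least 1; in each list its first 4 genes, the 4 with the smallest adjusted p and called members that go against the rest; all members of the cGAS-STING and interferon signalling lists; and the 6 largest in each direction for the other contrasts. The uncalled members Hcn2, Scn4b, Cmpk2 and Ciita were chosen after their values were seen. Promoters came from RefSeq (GRCm38.p6).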

Additional observations from a re-analysis of the deposited data

Results flagged for a closer look

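The difference between the labelled STING-KO effects at 7 and 14 days was tested as an interaction, and edgeR called it for 10292 genes. Tmem173 and Cgas, the genes of the pathway itself, differed by 5.53 ± 0.39 and 3.25 ± 0.43, with the STING-KO libraries the higher pair at 7 days and the lower pair at 14 days.

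Spp1 differed by 16.27 ± 0.87, from a change of 9.84 at 7 days to -6.43 at 14 days, where the STING-KO libraries had 7.26 and 13.4 CPM and the WT libraries 692 and 1085 CPM. The fitted differences of Saa3 (20.24), Atp6v0d2 (18.18), Mmp3 (16.50), Cd5l (16.25) and Tnf (15.59) were also positive. In these 5 genes at least 1 group held 1 count or none, so the sizes depend on the prior count of the fit and are no bounds.

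In the other direction, Npy2r differed by -6.00 ± 0.39, with 20.2 and 14.1 CPM in STING-KO and 4.38 and 6.92 CPM in WT at 14 days. Epha6 differed by -6.40 ± 0.55, Nkain3 by -6.81 ± 0.87, Fibcd1 by -6.68 ± 0.85, Nr4a3 by -6.63 ± 0.87 and Slc9a2, a sodium-proton exchanger, by -6.14 ± 0.98. All 6 were lower in the STING-KO libraries at 7 days, and the cause of the difference between the days was not tested.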

How the results depend on the processing

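The 9694 calls at 7 days became 9074 to 11149 under the other settings and 6884 to 8003 when 1 library was left out, and the 10292 calls for the difference between days became 8464 to 10478. The labels give no pairing and same-numbered libraries did not deviate together (correlation -0.0825); with a replicate block 9755 genes were called at 7 days, and 37 against cGAS-KO. Among the genes named above, the block ended the call of P4ha2 (edgeR adjusted p = 0.0573) and added that of Ppp1r1b (0.036). Of 442 named genes, none reversed; 38 of 3964 values lost their call and 38 gained one under the other settings, and 134 of 1768 lost it with a library left out. Against cGAS-KO the 32 calls became 263 (DESeq2), 60 (no filter), 6 (legacy test), 2 (only the libraries compared), 4 (only the 7-day libraries) and 0 to 202 with a library left out; the cause was not tested. With a library left out, list calls ran from 9 to 14 (cholesterol synthesis), 2 to 7 (T, NK and B cells), 5 to 12 (homeostatic astrocytes, reversed at 6), 10 to 21 (myelin), 6 to 9 (precursors), 10 to 15 (endothelium), 6 to 11 (pericytes), 6 to 12 (neuroblasts), 3 to 8 (striatal projection neurons), 1 to 2 (direct pathway), 1 to 3 (indirect pathway, reversed at 3), 5 to 8 (interneurons), 7 to 11 (thalamus), 12 to 14 (stress response), 5 to 8 (respiratory chain) and 1 in each case (mitochondrial genome). No filter left 4 calls for T, NK and B cells, 2 for the indirect pathway and 1 for the mitochondrial genome. Fitting only the libraries compared gave 4, 23 and 4 for T, NK and B cells, respiratory chain and mitochondrial genome, and only the 7-day libraries 21 and 4 for the last 2. All other list counts stayed within 1.5 times. With 2 libraries a group, genes near the floor limit what a difference can show.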
